A study of Mus musculus with 2 samples.

Results

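The genes described here are 10 components of Norrin and Wnt beta-catenin signalling, chosen by name as the gene rows of both count tables that carry the symbols *Fzd4*, *Fzd6*, *Lrp5*, *Lrp6*, *Tspan12*, *Adgra2*, *Ctnnb1*, *Lef1*, *Axin2* and *Apcdd1*. All 10 had a row in both tables, among 19813 genes that did. The cells were retinal endothelial cells of wild-type C57BL/6 mice at postnatal day 6 (P6) and postnatal day 15 (P15), sorted as CD31+ and CD45-, with 1 droplet library per age. The labels do not give the number of pups behind a library. Age and library therefore cannot be told apart, cells are not replicates, and no test across samples was possible.

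Norrin is a secreted ligand that binds the receptor Frizzled 4 on retinal endothelial cells together with the co-receptors Lrp5 or Lrp6 and the tetraspanin Tspan12. Binding keeps beta-catenin (Ctnnb1) from being degraded, and beta-catenin then acts with Lef and Tcf DNA-binding proteins on genes such as *Axin2* and *Apcdd1*, which in turn restrain the pathway. Wnt7a and Wnt7b use a related receptor complex with Adgra2 (also called Gpr124) and Reck. Loss of Norrin, Fzd4, Lrp5 or Tspan12 leaves the retina poorly vascularised and its vessels leaky, as in familial exudative vitreoretinopathy.

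The P6 table held 13958124 unique molecular identifiers (UMIs, each standing for 1 captured mRNA) in 1984 barcodes, and the P15 counts held 11589641 UMIs in 2141 barcodes. The cells analysed numbered 1585 at P6, with a median of 5316 UMIs (range 609 to 17143), and 1673 at P15, with a median of 4300 UMIs (range 613 to 14172). Both libraries carried the endothelial markers: a list of 10 such genes summed to 10002 CPM (UMIs per 1000000 UMIs of the same cells) at P6 and 15854 CPM at P15. All 10 were detected at both ages and *Cldn5*, which is also in the wider pathway list below, had the most UMIs at both. The libraries shared 7 barcodes. Published cluster labels were at hand for 1560 P6 cells and for 438 P15 cells, since the copy of the label table is cut short, and P15 values by cluster rest on those 438.

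Markers of other cell types differed between the libraries. A list of 9 pericyte genes summed to 11.8 CPM in the P6 cells, with 8 genes detected, *Rgs5* the most abundant and *Cspg4* at 0. In the P15 cells it summed to 303, again with 8 detected and *Rgs5* leading, and with *Tagln* at 0. A list of 10 photoreceptor and other neural genes summed to 24.0 CPM at P6, with 9 detected and *Sag* leading. At P15, where 9 had a row, it summed to 93.7 CPM, with 7 detected. *Neurod1* was at 0 at both ages and *Tubb3* at 0 at P15. A list of 5 red blood cell genes summed to 22.1 CPM at P6, with 3 detected, and 171 CPM at P15, with 4 detected, led by *Hbb-bs* at both ages. *Hbb-bt* was at 0 at both ages and *Alas2* at P6; *Neurod1* and *Hbb-bt* are among the genes on which cells were left out. A list of 7 Mueller glia and astrocyte genes, led by *Glul*, summed to 615 CPM at P6 (5 genes with a row, all detected) and 1831 CPM at P15 (6 with a row, all detected). It stood at 2102 CPM in P6 Cap-Arterial and 231 CPM in P6 Primitive cells, so that it differed between clusters. The list holds *Apoe*, which the paper used to mark Venous and Cap-Venous cells. The sum can therefore not be read as glial RNA alone, and RNA of the endothelial cells themselves cannot be told apart in it. A list of 8 macrophage genes, 7 of them with a row and detected, summed to 2.98 CPM at P6, led by *Csf1r*, and 9.21 CPM at P15, led by *C1qb*. *Xist* was found in 402 P6 and 151 P15 barcodes and a Y-linked gene in 530 and 1148, so the mix of sexes differed too. The part of these differences in the results was not tested.

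The comparison of ages is given first for the frizzled receptors. *Fzd4* (ENSMUSG00000049791.4, chr7:89404355-89413134 of GRCm38, plus strand), the Norrin receptor, had 433 UMIs at P6 or 44.5 CPM (40.4 to 48.9, exact Poisson 95% interval), and 525 UMIs at P15 or 68.1 (62.4 to 74.2). The P15 to P6 ratio was 1.53 (1.35 to 1.74). All intervals here cover counting error only. *Fzd6* (ENSMUSG00000022297.14, chr15:39006034-39038188, plus strand), a frizzled best known for planar cell polarity in skin and hair, stood at 126 CPM at P6 (119 to 133) and 196 at P15 (187 to 206). Its ratio was 1.56 (1.44 to 1.68). The level was higher at P15 for both receptors, and the intervals of the libraries did not overlap for either.

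Lrp5 and Lrp6 are the co-receptors that pass the signal on with a frizzled. *Lrp5* (ENSMUSG00000024913.16, chr19:3584828-3686564, minus strand) had 18.6 CPM at P6 (16.0 to 21.5) and 19.2 at P15 (16.2 to 22.6), a ratio of 1.03 (0.825 to 1.29). *Lrp6* (ENSMUSG00000030201.15, chr6:134446476-134566965, minus strand) had 19.3 at P6 (16.7 to 22.3) and 27.0 at P15 (23.4 to 30.9), a ratio of 1.40 (1.14 to 1.71). Whether the ratios of the 2 co-receptors differ was not tested, and their intervals overlap.

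*Tspan12* (ENSMUSG00000029669.14, chr6:21771395-21852515, minus strand), which sharpens the response of Fzd4 to Norrin, stood at 246 CPM at P6 (236 to 256) and 340 at P15 (327 to 353). Its ratio of 1.38 (1.31 to 1.46) rests on 2394 and 2619 UMIs. *Adgra2* (ENSMUSG00000031486.15, chr8:27085583-27123436, plus strand), the adhesion receptor that works with Reck, had 33.8 at P6 (30.3 to 37.7) and 41.5 at P15 (37.1 to 46.3), a ratio of 1.23 (1.05 to 1.44). The 3′ end of *Adgra2* overlaps *Brf2* on the opposite strand by 73 bases, and *Brf2* had 126 and 95 UMIs. Whether the counting used strand is not stated, so UMIs from the overlap cannot be told apart.

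In the nucleus, *Lef1* (ENSMUSG00000027985.14, chr3:131110471-131224356, plus strand), which encodes a DNA-binding partner of beta-catenin, stood at 154 CPM at P6 (147 to 162) and 243 at P15 (232 to 255). The ratio was 1.58 (1.47 to 1.69). *Gm42449*, annotated inside *Lef1* on the same strand, had 82 UMIs at P6 and 262 at P15, and reads of the pair could be split by the counting. *Ctnnb1* (ENSMUSG00000006932.17, chr9:120929216-120960507, plus strand) was sparse at 81 and 103 UMIs, or 8.33 CPM at P6 (6.61 to 10.3) and 13.4 at P15 (10.9 to 16.2). Its ratio was 1.61 (1.19 to 2.17). The 3′ end of *Ctnnb1*, the end this kind of library reads, lies inside *Ulk4* on the opposite strand over 5157 bases, and the part of that overlap in the low counts was not tested.

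Of the feedback inhibitors, *Axin2* (ENSMUSG00000000142.15, chr11:108920349-108950783, plus strand), a scaffold of the destruction complex and a common readout of the pathway, had 11.6 CPM at P6 (9.57 to 14.0) and 10.5 at P15 (8.34 to 13.1). Its ratio was 0.905 (0.672 to 1.21), so that no difference was detectable at this depth. *Apcdd1* (ENSMUSG00000071847.12, chr18:62922231-62961179, plus strand), a membrane inhibitor of Wnt signalling, had only 36 and 39 UMIs and a ratio of 1.37 (0.847 to 2.21).

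**Figure D1:**
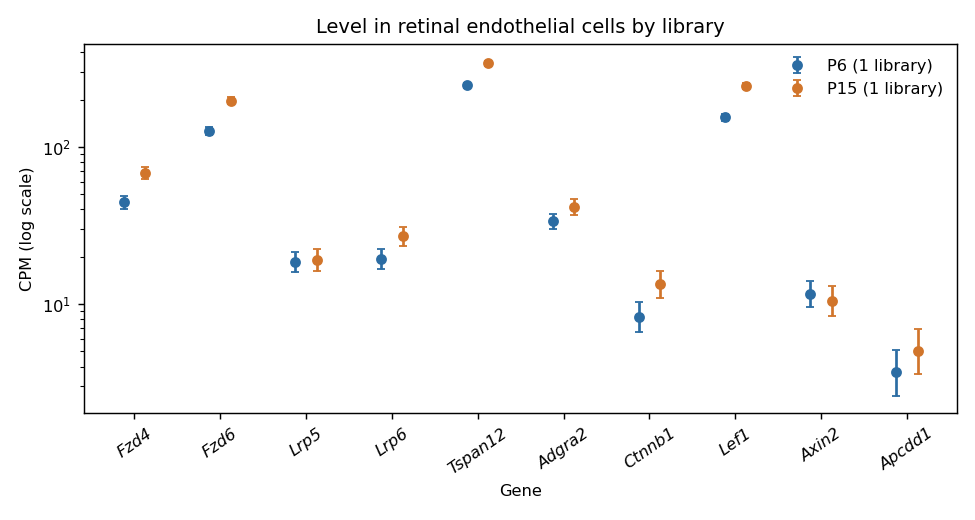
CPM on a log axis for each of the 10 genes at P6 and at P15, with exact Poisson 95% intervals for counting error and 1 library per age. The intervals of *Fzd4*, *Fzd6*, *Tspan12*, *Lrp6*, *Ctnnb1* and *Lef1* lie apart between the ages, and those of *Lrp5*, *Adgra2*, *Axin2* and *Apcdd1* overlap; levels of different genes are not per length and are not to be ranked.

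Of the 9 genes with at least 100 UMIs over both libraries, 4 had a ratio of at least 1.5 (*Fzd4*, *Fzd6*, *Ctnnb1* and *Lef1*) and 0 a ratio of at most 1/1.5; over all 9751 genes with that many UMIs, 18.2% were past the fold upward and 11.4% downward. *Apcdd1* was below the minimum. The median ratio of the 9 was 1.40 and that of all genes 1.09, or 0.12 on the log2 scale. Relative to this median gene, 7 of the 9 were above 1 and 0 of the 9 were past 1.5 in either direction, against 13.3% of all genes upward and 14.8% downward. Relative ratios were 1.40 for *Fzd4* (1.23 to 1.60), 1.43 for *Fzd6* (1.32 to 1.54), 1.27 for *Tspan12* (1.20 to 1.34), 1.45 for *Lef1* (1.35 to 1.55) and 0.830 for *Axin2* (0.616 to 1.11). Cytosolic ribosomal protein genes took 19.2% of UMIs at P6 and 10.9% at P15, and with them and mitochondrial genes left out of the total the median ratio of all genes was 0.986 and 0 of the 9 were past 1.5 upward, against 12.7% of all genes. The count of 4 thus depends on the scaling. It also depends on the choice of cells, at 2 of 9 in labelled cells (17.3% of all genes upward). With P15 clusters weighted to P6 shares it was 1 of 9 (15.4%). The ratio to the median gene is the same under any total, and its intervals for *Fzd4*, *Fzd6*, *Tspan12* and *Lef1* lay above 1. So did those of the sparser *Lrp6*, at 1.28 (1.05 to 1.57), and *Ctnnb1*, at 1.47 (1.09 to 1.99). The intervals included 1 for *Adgra2*, at 1.13 (0.962 to 1.32), *Lrp5*, at 0.946 (0.756 to 1.18), and *Axin2*.

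The share of cells with a UMI was compared after each cell was thinned to 3000 UMIs, which left 1406 P6 cells and 1192 P15 cells and dropped 179 and 481 shallower ones. *Lef1* was found in 34.9% of thinned P6 cells (32.4 to 37.5, Clopper-Pearson 95% interval) and 49.7% of thinned P15 cells (46.9 to 52.6), and in 53.6% and 59.1% before thinning. *Fzd6* was found in 31.2% (28.7 to 33.7) and 42.7% (39.9 to 45.6), and in 48.6% and 53.9% before. *Tspan12* went from 49.4% (46.8 to 52.1) to 59.8% (57.0 to 62.6), and *Fzd4* from 12.9% (11.2 to 14.8) to 17.2% (15.1 to 19.5). These shares had the same order of ages as the levels. The other 6 genes had thinned shares of 1.21% (*Apcdd1*) to 9.10% (*Adgra2*) at P6 and 2.10% to 10.5% at P15, with overlapping intervals except for *Lrp6*, at 5.55% (4.41 to 6.88) and 8.39% (6.88 to 10.1), where they touch.

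Where labels allowed, the ages were also compared within clusters that had at least 10 labelled cells at each age, which were 8. Over all genes with at least 50 UMIs in a cluster over both ages, the median ratio there ran from 0.962 (Capillary) to 1.07 (Cap-Venous), and 47% to 57.2% of genes were higher at P15. *Lef1* was higher at P15 in 8 of 8, with an interval above 1 in 5 of them and above the cluster's median gene in the same number, and its ratio was 1.57 in Stalk cells (1.22 to 2.02), 1.29 in Cap-Venous (1.08 to 1.53) and 1.59 in Cap-Arterial (1.18 to 2.12). *Fzd6* was higher in 7 of 8, at 1.89 in Stalk cells (1.41 to 2.50) and 1.34 in Cap-Venous (1.09 to 1.65), but at 1.03 in Cap-Arterial cells (0.800 to 1.33) and 0.774 in Arterial (0.351 to 1.54). *Tspan12* was higher in 6 of 8, at 1.52 in Cap-Venous cells (1.32 to 1.76) and 1.45 in Stalk (1.21 to 1.74), and lower in Capillary, at 0.908 (0.579 to 1.38), and Arterial, at 0.575 (0.237 to 1.21). *Fzd4* was higher in 7 of 8, with an interval above 1 in 2 and above the median gene of the cluster in 1. Against the cluster's median gene, *Fzd6* was higher in 6 of 8 and *Tspan12* in 6 of 8, with intervals above it in 3 and 2. *Lrp5* was higher in 2 of 8, and no interval of these genes lay below 1. With the P15 clusters weighted to the P6 shares, the ratio of *Fzd6* was 1.33 and that of *Lef1* 1.47.

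Over the published clusters, *Fzd6* at P6 ran from Cap-Arterial at 281 CPM (246 to 319), Arterial at 263 (197 to 345) and Capillary at 189 (154 to 231) through Venous at 158 (115 to 212), Cap-Venous at 130 (116 to 144), Tip at 121 (101 to 143) and Stalk at 105 (88.4 to 123) to Proliferative at 68.7 (56.7 to 82.4) and Primitive at 44.6 (32.1 to 60.3). Only Stalk and Proliferative had intervals apart among neighbours in this order. Against all other labelled P6 cells, the ratio was 2.53 in Cap-Arterial (2.18 to 2.92), 2.14 in Arterial (1.59 to 2.82) and 0.331 in Primitive (0.237 to 0.450). At P15, over the 6 clusters with at least 30 labelled cells, Capillary stood at 303 (207 to 427), Cap-Arterial at 291 (233 to 358), Stalk at 197 (156 to 246), Cap-Venous at 174 (146 to 206), Tip at 127 (88.7 to 175) and Primitive at 88.8 (44.3 to 159), with no neighbours apart. The clusters were made from these same cells, so that these are descriptions.

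*Lef1* had another order. At P6 Venous cells stood at 246 CPM (192 to 311) and Cap-Venous at 185 (169 to 202), Capillary at 159 (126 to 197), Cap-Arterial at 158 (132 to 187), Stalk at 150 (130 to 171), Tip at 147 (126 to 172), Proliferative at 130 (114 to 149), Primitive at 105 (85.4 to 128) and Arterial at 96.2 (57.9 to 150, from 19 UMIs). No neighbours in this order had intervals apart, although the ratio to the other labelled cells was 1.62 in Venous (1.26 to 2.07) and 1.30 in Cap-Venous (1.16 to 1.45) and 0.618 in Arterial (0.371 to 0.969). At P15 Capillary stood at 284 (191 to 405), Cap-Arterial at 251 (198 to 314), Cap-Venous at 238 (205 to 276), Stalk at 235 (190 to 288), Tip at 187 (140 to 244) and Primitive at 121 (67.8 to 200), and no neighbours were apart.

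*Tspan12* ran from 178 CPM in P6 Primitive cells (152 to 208) to 298 in P6 Stalk cells (270 to 328), and Cap-Venous, at 233 (215 to 252), and Primitive were the neighbours whose intervals lay apart. Stalk was also the highest P15 cluster, at 433 (370 to 503), where the ratio to the remaining labelled cells was 1.40 (1.17 to 1.66), beside 1.27 in the P6 library (1.14 to 1.41). *Fzd4* ran at P6 from 31.9 in Primitive (21.5 to 45.5) to 55.4 in Tip (42.5 to 71.0), with every interval of the ratio to the other labelled cells including 1. At P15 it was highest in Capillary cells, at 142 (79.4 to 234), and 56.5 in Primitive (22.7 to 116). *Adgra2* ran from 11.7 in P6 Primitive (5.83 to 20.9) to 78.4 in P6 Capillary cells (56.3 to 106), with Cap-Venous and Primitive the neighbours whose intervals lay apart. *Lrp5* was at 40.2 in P6 Capillary cells (24.9 to 61.4) and 10.6 in Primitive (5.09 to 19.5), with no neighbours apart. The sparse genes had no neighbours apart either: at P6 *Lrp6* ran from 13.4 in Tip to 40.5 in Arterial cells, *Ctnnb1* from 3.19 in Primitive to 19.1 in Capillary, *Axin2* from 4.25 in Primitive to 15.3 in Capillary, and *Apcdd1* from 0 of 197598 UMIs in Arterial to 7.03 in Venous.

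Capillary and Primitive cells stood at the ends of many of these orders, and other genes moved with them. *Cdh5* was at 780 CPM in P6 Capillary and 331 in P6 Primitive cells, and *Pecam1* at 734 and 310. Ribosomal protein genes took 14.8% of UMIs in P6 Capillary and 25.0% in P6 Primitive cells, and the median depth was 3204 and 5148 UMIs. Mitochondrial genes took 2.53% of UMIs in P6 Capillary and 1.28% in P6 Primitive cells, and 1.84% and 1.41% at P15. At P15 the neural marker list reached 839 in Primitive cells. The part of these in the order of clusters was not tested. Among P15 Capillary cells only 12 of 42 had 3000 UMIs, and after thinning the ratio of *Fzd6* there to the other labelled cells turned from 1.68 (1.13 to 2.41) to 0.813. With predicted labels added, *Fzd6* was at 303 in P15 Cap-Arterial (273 to 334) and 291 in P15 Capillary cells (231 to 362), in the other order.

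**Figure D2:**
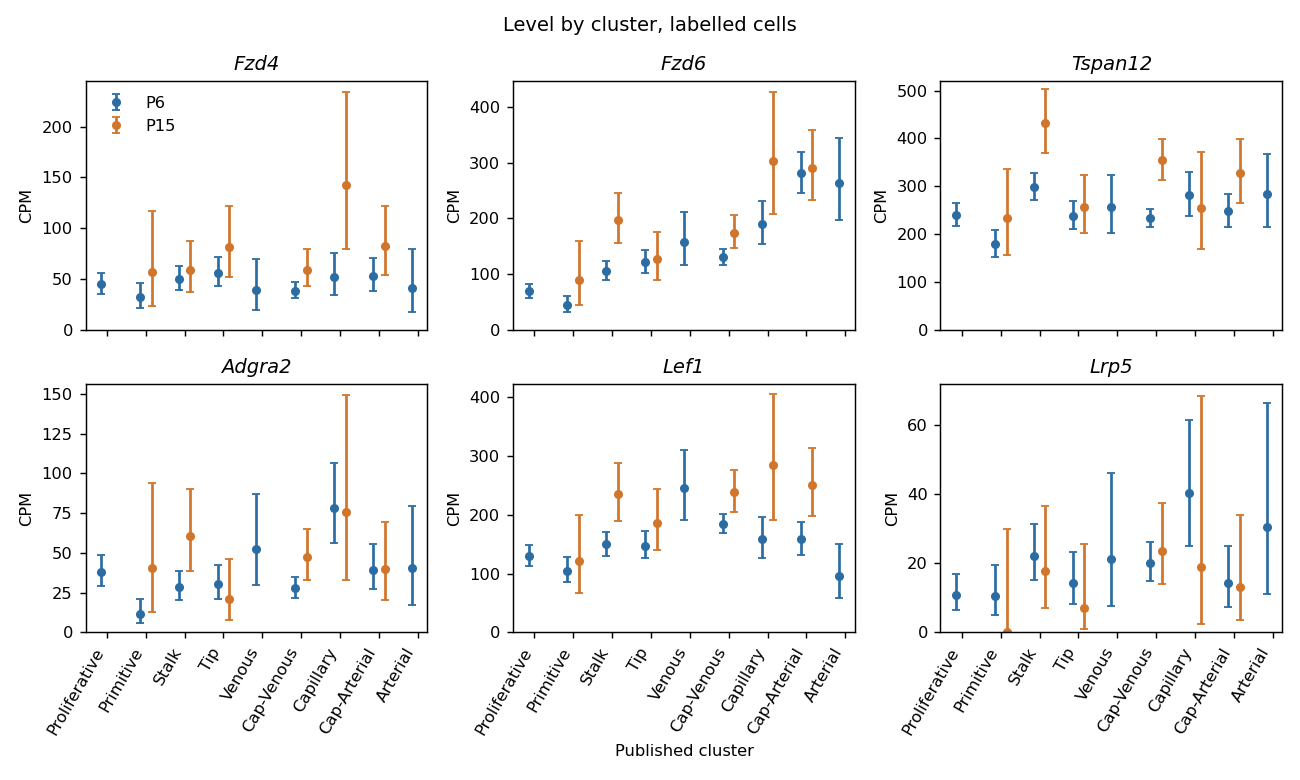
CPM of 6 genes in each published cluster with at least 30 labelled cells, at P6 and at P15, with exact Poisson 95% intervals. Within P6 *Fzd6* is highest in Cap-Arterial cells at 281 and *Lef1* in Venous cells at 246, within P15 the points of both are highest in Capillary cells, with intervals that overlap those of Cap-Arterial cells, and *Tspan12* is highest in Stalk cells at both ages.

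The venous to arterial order was compared at P6 between Cap-Arterial or Arterial cells and Cap-Venous cells. *Fzd6* was 2.17 times as high in Cap-Arterial as in Cap-Venous cells (1.83 to 2.57). It was the 1 of 8 genes with at least 50 UMIs over both clusters that was past 1.5, and 0 were past 1/1.5, where 12.1% of all such genes were past the fold upward and 8.48% downward. In Arterial cells *Fzd6* was at 2.03 times the Cap-Venous level (1.49 to 2.72) and *Lef1* at 0.520 times (0.311 to 0.821). There 3 of 7 were past the fold upward and 1 downward, against 20.7% and 20.2% of all genes. The other 2 upward, *Lrp5* at 1.53 (0.536 to 3.54) and *Lrp6* at 1.77 (0.730 to 3.71), rest on 6 and 8 Arterial UMIs and their intervals include 1. In labelled P15 cells the Cap-Arterial ratio of *Fzd6* was 1.67 (1.26 to 2.20), and that of *Lef1* was 1.05 (0.795 to 1.38). In P15 Arterial cells, 11 in number, *Fzd6* was at 1.17 (0.548 to 2.22) and *Lef1* at 0.855 (0.403 to 1.61), and *Tspan12*, from 8 Arterial UMIs, was at 0.459 (0.196 to 0.918). The P6 Arterial ratio of *Tspan12* was 1.22 (0.908 to 1.60). With predicted labels added, 42 P15 Arterial cells had *Lef1* at 157.5 CPM (104.6 to 227.6), against 265.1 (247.6 to 283.4) in Cap-Venous. There *Fzd6* was at 185.6 against 187.4 and *Tspan12* at 180 against 346.1.

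The wider pathway was read from a list of 96 genes in 7 roles, of which 48 had at least 100 UMIs and 18 lacked a row in at least 1 library. A missing row is not a count of 0. Of the 48, 10 were past 1.5 upward and 4 downward, with a median ratio of 1.15 against 1.09 over all genes, where 18.2% of all genes were past the fold upward and 11.4% downward. Ligands were scarce in these cells. *Ndp*, which encodes Norrin, had 4 UMIs at P6 and 3 at P15, *Wnt7b* had 6 at P6 and no row at P15, and *Wnt7a* had a row in neither table. *Wnt5b*, a ligand usually linked to signalling without beta-catenin, was the 1 ligand that reached the minimum, with 27 and 94 UMIs and a ratio of 4.39 (2.84 to 7.01).

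Among the other receptors, *Reck*, the partner of Adgra2, had 35 and 70 UMIs and a ratio of 2.52 (1.66 to 3.90), and *Fzd1* had a ratio of 2.11 (1.43 to 3.16). *Ryk*, with the most UMIs of the role, was at 0.710 (0.546 to 0.920). Of the 5 inhibitors with enough UMIs, 1 was past the fold upward and 1 downward, beside 18.2% and 11.4% of all genes. *Nkd1*, which acts on Dishevelled, went from 33.2 to 71.1 CPM (ratio 2.14, 1.86 to 2.46). *Dkk2* was at 0.544 (0.378 to 0.773), with 369 CPM in P6 Arterial cells, and *Ctnnbip1*, the most abundant, was at 1.43 (1.34 to 1.53). Of 10 cytoplasmic transducers and 9 nuclear partners with enough UMIs, 0 were past the fold (18.2% of all genes upward and 11.4% downward), and their leading genes were *Csnk1a1* at 1.11 (1.05 to 1.17) and *Tcf7l2* at 1.23 (1.14 to 1.32).

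The endothelial genes known to respond to beta-catenin signalling held the 2 lowest ratios among the 48, *Plvap* and *Sox18*, with 6 of 14 past the fold upward and 2 downward, beside the same 18.2% and 11.4% of all genes. *Cldn5*, a tight junction claudin, went from 5383 to 9942 CPM (ratio 1.85, 1.83 to 1.87), *Slc2a1*, the barrier's glucose carrier, had a ratio of 1.89 (1.85 to 1.94) and *Abcb1a*, an efflux pump, 2.20 (2.03 to 2.38). *Sox17* was at 2.17 (2.06 to 2.28), *Foxq1* at 1.98 (1.89 to 2.09) and *Tnfrsf19* at 1.65 (1.39 to 1.95). *Plvap*, the protein of fenestral diaphragms, fell from 236 to 14.0 (ratio 0.0593, 0.0484 to 0.0719), and *Sox18* was at 0.276 (0.257 to 0.296). Of the 5 junctional partners of beta-catenin, *Cdh2* was at 0.483 (0.445 to 0.523), and *Cdh5*, with the most UMIs, was at 0.970 (0.930 to 1.01). Relative to the median gene, the 10 genes past the fold upward ran from 1.51 (*Tnfrsf19*) to 4.03 (*Wnt5b*). *Ryk* (0.651) and *Sp5* (0.631, named after its value was seen) were past it downward beside the 4 above. Over all genes, 13.3% were past this relative fold upward and 14.8% downward.

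**Figure D3:**
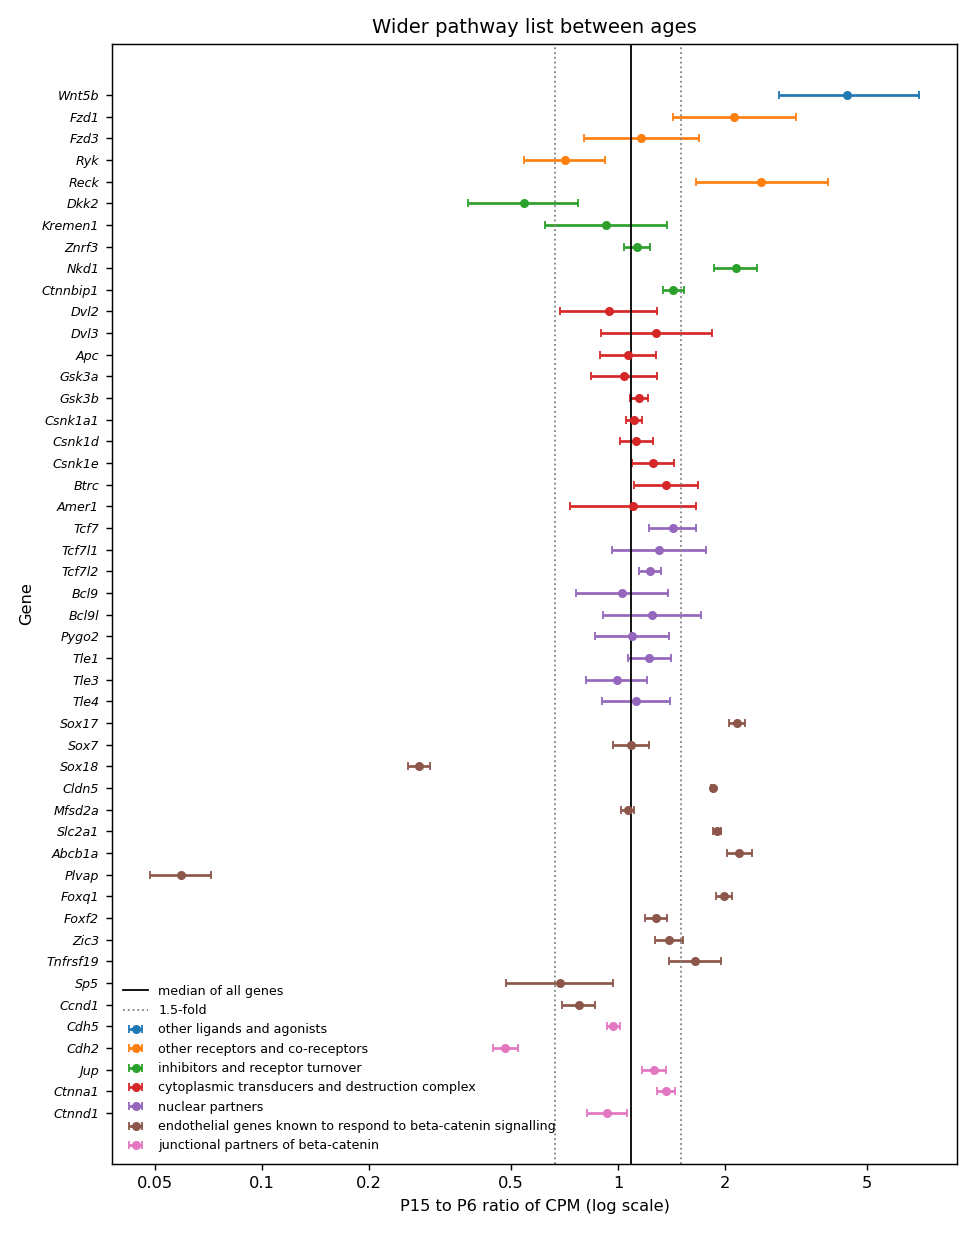
P15 to P6 ratio of CPM on a log axis for the 48 wider pathway genes with at least 100 UMIs, coloured by role, with conditional binomial 95% intervals for counting error. The black line is the median of all genes, 1.09, and dotted lines mark 1.5-fold; the points of cytoplasmic transducers and nuclear partners lie between those, and *Plvap* is lowest at 0.0593.

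To see whether UMIs in endothelial cells could come from free RNA, the genes were read in barcodes with more neural than endothelial marker UMIs, of which 67 were found at P6 with a median of 4249 UMIs against 5316 in the endothelial cells. *Fzd4* was found in 1.49% of them (0.0378 to 8.04) against 22.8% of endothelial cells (20.8 to 25.0), *Lef1* in 2.99% (0.364 to 10.4) against 53.6% (51.1 to 56.1), and *Adgra2* in 2.99% (0.364 to 10.4) against 18.3% (16.4 to 20.3). *Fzd6* was found in 10.4% (4.30 to 20.3) against 48.6% (46.2 to 51.1), and *Tspan12* in 16.4% (8.49 to 27.5) against 67.2% (64.8 to 69.5). Of the 67, 2 are among the cells analysed. For *Lrp5* the share was 13.4% in neural barcodes (6.33 to 24.0) against 10.5% in endothelial cells. For *Lrp6* it was 14.9% (7.40 to 25.7) against 10.9%. For *Ctnnb1* it was 5.97% (1.65 to 14.6) against 4.80%, and for *Axin2* 8.96% (3.36 to 18.5) against 6.50%. Neural cells are also known to use *Lrp5*, *Lrp6*, *Ctnnb1* and *Axin2*. Free RNA and their own RNA therefore cannot be told apart in these barcodes. *Apcdd1* was found in 0 of the 67, which allows a share of up to 4.48% (3 counts of the 67), above the 2.27% of endothelial cells. These shares cover P6 only. At P15, 8 such barcodes were found, and they held endothelial markers at 2567 CPM, against 488 in the 67 at P6.

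At P15, 74 barcodes had more pericyte than endothelial marker UMIs, of which 7 are among the cells analysed. These barcodes also held endothelial markers at 3912 CPM, with *Cldn5* at 1960 against 9942 in the endothelial cells, neural markers at 2659 and red blood cell genes at 4573, and the part of these in the levels of the members there was not tested. *Tspan12* was found in 66.2% of them (54.3 to 76.8) at a median of 4058 UMIs and in 69.2% of the P15 endothelial cells (66.9 to 71.4), with levels of 308 (251 to 374) and 340 CPM (327 to 353). *Lef1* was at 48.8 (27.9 to 79.2) in these barcodes against 243 (232 to 255), and *Fzd6* at 45.7 (25.6 to 75.4) against 196 (187 to 206). The intervals overlapped for *Adgra2*, at 36.6 (18.9 to 63.9) against 41.5 (37.1 to 46.3), *Lrp6*, at 27.4 (12.5 to 52.1) against 27.0 (23.4 to 30.9), *Lrp5*, at 27.4 (12.5 to 52.1) against 19.2 (16.2 to 22.6), and *Fzd4*, at 48.8 (27.9 to 79.2) against 68.1 (62.4 to 74.2). At P6, 7 pericyte barcodes were found, with *Tspan12* at 562 CPM (343.1 to 867.5), *Lef1* at 140 (45.6 to 327.7) and *Fzd6* at 0 UMIs.

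**Figure D4:**
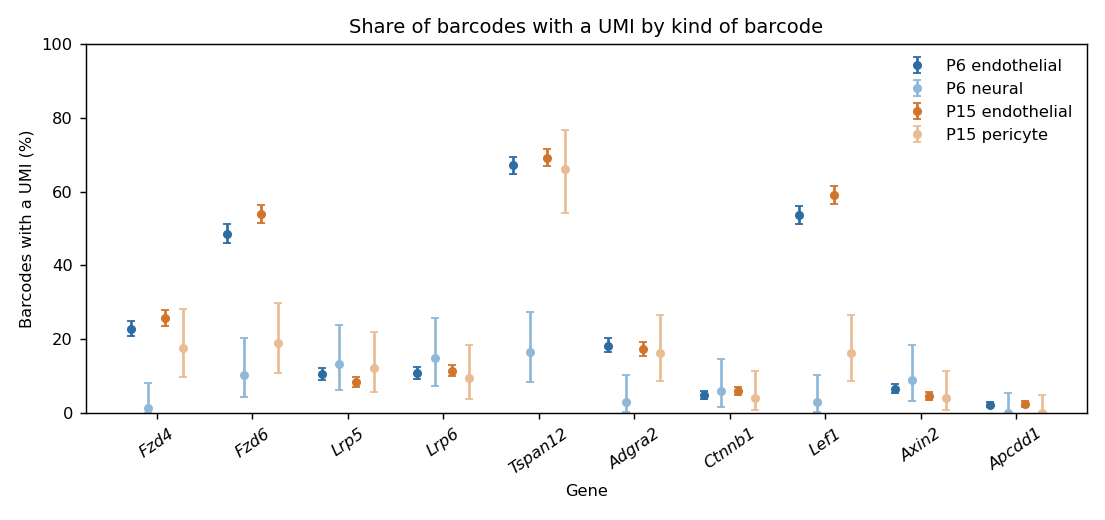
Percent of barcodes with a UMI, not thinned, for each of the 10 genes in P6 and P15 endothelial cells, 67 P6 neural barcodes and 74 P15 pericyte barcodes, with Clopper-Pearson 95% intervals. *Lef1*, *Fzd6* and *Fzd4* are far higher in P6 endothelial than P6 neural barcodes, and the intervals of *Tspan12* overlap between P15 endothelial cells and pericyte barcodes, at 69.2% and 66.2%, as do those of *Adgra2*, at 17.3% and 16.2%.

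For the 7 genes with at least 200 UMIs, the genes with the most similar pattern over 15 clusters of both ages were found by Pearson r of log2(CPM + 5), as a description over clusters that share cells, depth and library. For *Fzd4* they were *9530068E07Rik* (0.930), *Tmem33* (0.917) and *Dgat1* (0.893), and for *Fzd6* *Rgs3* (0.954), *Utrn* (0.947) and *Atp2c1* (0.946). For *Tspan12* they were *Rgl2* (0.936), *Zbtb7a* (0.879) and *Dcaf6* (0.874), and for *Lef1* *Zkscan4* (0.921), *Gm37393* (0.915) and *Bet1* (0.895). For *Lrp5* they were *Patz1* (0.908), *Afap1* (0.900) and *9630010A21Rik* (0.899), and for *Lrp6* *Rapgef1* (0.925), *Zc3h7b* (0.921) and *Arhgap5* (0.879). For *Adgra2* they were *Cnot1* (0.889), *Fyco1* (0.888) and *Trim25* (0.884). Over the 9 P6 clusters alone only 2 of the 21 pairs were found again.

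RefSeq promoters of GRCm38.p6 were at hand for 5 of the 10 genes (*Lef1*, *Tspan12*, *Fzd4*, *Ctnnb1* and *Axin2*), as 9 starts. They are shown because *Lef1* is a partner of beta-catenin and *Axin2* a target. The 250 bases before each start were searched on both strands for the Tcf and Lef words, which were CTTTGAA, or with another last base CTTTGAT, and with another sixth base CTTTGTA, or with both changed CTTTGTT. A word was found at 1 of the 9, against 14.8% of 32851 promoters: TACAAAG, the reverse complement of CTTTGTA, 147 bases before a *Lef1* start that lies inside the gene (chr3:131156044-131156293, plus strand, the word in capitals). The *Axin2* window (chr11:108920099-108920348, plus strand) held none, which says only that these letters are not in it.
Lef1: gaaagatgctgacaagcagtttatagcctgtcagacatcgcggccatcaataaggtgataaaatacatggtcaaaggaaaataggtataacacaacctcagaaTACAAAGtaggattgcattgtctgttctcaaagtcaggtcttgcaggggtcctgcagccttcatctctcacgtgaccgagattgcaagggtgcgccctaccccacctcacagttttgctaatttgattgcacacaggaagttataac
Axin2: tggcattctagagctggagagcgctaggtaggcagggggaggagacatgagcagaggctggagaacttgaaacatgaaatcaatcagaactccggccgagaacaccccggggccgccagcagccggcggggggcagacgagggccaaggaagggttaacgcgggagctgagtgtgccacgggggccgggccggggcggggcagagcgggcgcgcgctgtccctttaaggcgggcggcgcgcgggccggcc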

How the data were processed

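The authors deposited UMI counts per gene and barcode for 1 library per age, not normalized. The submitters' notes name Seurat 3.0 and mm10. Coordinates are from GENCODE (GRCm38). Cells were kept with 200 to 3500 genes, at most 5% mitochondrial UMIs and no *Hbb-bt*, *Neurod1* or *Cd63*, or with a published label, matched by barcode. The P15 labels are cut short, and the label rule kept 161 P6 but 29 P15 cells that fail the other criteria. The rule for cells thus differs in effect between the ages, and cells that pass the criteria were used as an alternative. UMIs were summed by gene and library or cluster over all UMIs of those cells. No doublet caller was run; 25 P6 and 24 P15 barcodes had *Xist* and a Y-linked gene (*Ddx3y*, *Eif2s3y*, *Kdm5d* or *Uty*), and the 12 and 13 of them among the cells analysed were left out as an alternative. Members and lists were chosen with earlier results of these data known. Named genes are the members; per pathway role the gene with most UMIs and every gene past 1.5-fold; *Ndp*, *Wnt7a*, *Wnt7b* and *Reck*; the 3 genes most alike over clusters; and markers. *Dkk2* by cluster was added after its values were seen.

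Labels of the other P15 cells, used only as an alternative, were predicted from 15 nearest neighbours on 2000 variable genes and 13 principal components, without pathway genes. In 5-fold cross-validation 79.5% of P6 and 82.4% of P15 labels were right. This was 1 of 8 versions tried: 2 earlier ones were set aside for lower accuracy, and 6 settings of the last gave 76.2% to 79.6% at P6 and 79.9% to 83.6% at P15. It was first run with 20 components and changed to the 13 of the study's methods. The method was chosen on the same labels, so its accuracy may be overstated.

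Alternatives covered cells, depth, clusters, doublets, scaling and thresholds. Chosen after the data were seen were the ratio relative to the median gene, 1 other choice of cells whose results are not given, and cluster ratios without mitochondrial and ribosomal genes. Ratio steps were tested on simulated counts. Python 3.11.15, numpy 2.4.6, scipy 1.17.1, pandas 2.3.3 and matplotlib 3.10.9 were used.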

Additional observations from a re-analysis of the deposited data

How the results depend on the processing

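No paired analysis was possible because there is 1 library per age. Of 233 alternative values, which include those of 1 choice of cells whose results are not given, 211 stayed within the main interval or within 1.5 times the main count, 21 moved and 1 turned. The count of 4 genes past 1.5-fold was 2 of 9 in labelled cells (17.3% of all genes upward), 2 of 9 in cells that pass the exclusion criteria (17.5%), 2 of 7 after thinning (18%), 1 of 9 with P15 clusters weighted to P6 shares (15.4%) and 1 of 8 without Proliferative and Primitive cells (14.7%). It was 0 of 9 with a fold of 2 (6.8%), without mitochondrial and ribosomal genes in the total (12.7%), or relative to the median gene (13.3%, chosen after the data were seen). Age ratios moved for *Fzd4* to 1.34 with thinning; for *Fzd6* to 1.68 in every barcode, 1.33 with weighted clusters, 1.41 without mitochondrial and ribosomal genes and 1.32 without Proliferative and Primitive cells; for *Lef1* under the same settings to 1.73, 1.47, 1.42 and 1.40; and for *Tspan12* to 1.25 without mitochondrial and ribosomal genes. These stayed above 1. Within their intervals, *Axin2* passed from 0.905 to 1.08 in every barcode, 1.07 in labelled cells and 1.21 with weighted clusters, and *Lrp5* from 1.03 to between 0.864 and 0.997 in 6 settings, so that neither has a direction here. After thinning, the P15 Capillary ratio of *Fzd6* turned to 0.813 on 12 cells, and the P15 Stalk ratio of *Tspan12* moved to 1.75. The 3 genes past 1.5 upward in P6 Arterial cells were 0 in labelled P15 cells (18.5% of all genes), where 3 genes in place of 7 reached the minimum and the 1 gene past the fold downward (27.6% of all genes) was *Tspan12*, not *Lef1* as at P6. Of 21 pairs of like genes, 2 were found with P6 clusters only. The other causes were not tested. *Ctnnb1*, *Axin2* and *Apcdd1* rest on few UMIs, and why they are few was not tested.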
